A study of Mus musculus with 4 samples.

Results

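The genes of the pre-B receptor and of V(D)J recombination were described in single-nucleus multiome data of mouse bone marrow. The 9 members were Igll1, Vpreb1, Rag1, Rag2, Dntt, Ighm, Cd79a, Cd79b and Blnk, chosen by name from 32272 gene rows, together with the 122 of 174339 open chromatin peaks that lay within 50 kb of the start of transcription that the deposited table gives for each. Distances below are from these starts, so the 3′ parts of long genes such as Blnk lay outside the windows. The samples were hematopoietic stem and progenitor cells (HSPCs), sorted as lineage-negative, cKit-positive cells from bone marrow of C57BL/6 mice that were male and 8 weeks old. One sample came from unligated control mice (Ctrl) and the other from mice with a silk ligature around molars for 14 days (Lig), and each gave an RNA and an ATAC library, so the 4 label groups held 1 sample each and no replicates. The lineage cocktail of the sort, named in the methods of the study, included an antibody to B220, a surface marker of most B lineage cells, so the B lineage nuclei described below are those that passed a gate set against them. In the deposited matrix the nuclei carried barcode suffix 1 or 2, and the labels do not say which suffix is which sample. The suffixes are written as library 1 and library 2 and belong to no group, so no comparison between Lig and Ctrl was made and no test across samples was possible.

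A developing B cell assembles its antigen receptor genes from V, D and J segments. Rag1 and Rag2 form the recombinase that cuts DNA at recombination signals beside the segments, and in the usual deletional joining the DNA between the joined segments is lost from the chromosome. Dntt, the terminal transferase, adds untemplated nucleotides to the ends before they are joined. Once a heavy chain is made from Ighm, it pairs with the surrogate light chain, formed by Igll1 and Vpreb1, and the complex signals through Cd79a and Cd79b to the adaptor Blnk. On the heavy chain locus, a D segment joins a J segment before a V segment joins them.

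Barcodes passed with 200 or more genes and between 1000 and 50000 ATAC counts, after which library 1 held 5905 nuclei and 10294527 RNA molecules (unique molecular identifiers, UMIs), and library 2 held 7714 nuclei and 12537328 UMIs. ATAC counts in peaks came to 118239764 and 128699726. The median nucleus held 1641 UMIs in library 1 and 1516.5 in library 2. Genes at the ribosomal RNA locus (Gm42418, Gm26917 and AY036118) took 43.0% of UMIs in library 1 and 53.2% in library 2, so the level of any other gene was set against unequal totals. The libraries shared 146 barcode sequences, of which 72 were kept in both. Levels are given as UMIs, or ATAC counts, per 1000000 UMIs or ATAC counts of the same nuclei and library (CPM), with intervals in square brackets. All intervals are 95% intervals (exact Poisson for levels, exact Clopper-Pearson for shares and exact conditional for ratios), and they cover counting error only, not the spread between animals.

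Nuclei were clustered on RNA and chromatin without the members and without the peaks of their windows, which left 16 clusters. The cluster called pro-B-like held 799 nuclei in library 1 (13.5%) and 384 in library 2 (4.98%), and all 8 of the listed pro-B markers (Ebf1, Pax5, Il7r, Lef1, Pou2af1, Bach2, Cecr2 and Cplx2) were raised in it. Cluster 9, with 253 nuclei (4.29%) and 131 (1.70%), raised the same 8 markers but had none of them among its 10 leading genes, which included Cacna2d1, Kcnh8 and Pcdh9, so it is given by its number. A mature B-like cluster, whose 10 leading genes included Jchain, Igha, Ms4a1 and Bank1, held 190 nuclei (3.22%) and 85 (1.10%). These 3 clusters, a set made after the clusters had been seen, are called the B lineage below and held 1242 nuclei (21.03%) in library 1 and 600 (7.78%) in library 2. Lymphoid-primed multipotent-like nuclei (LMPP-like, 418 and 463) raised 6 of 6 listed markers, and erythroid progenitor-like nuclei (EryP-like, 344 and 351) stand as cells that should lack the members.

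The DNA before the start of 4 members is shown first, because the peaks there differed most between B lineage and other nuclei (Igll1, Rag1 and Cd79a) or because no peak was called there (Vpreb1). The sequences are from the mouse genome GRCm38 as RefSeq and the reference assembly give it, each 5′ to 3′ in the direction of the gene. Capitals mark the letters searched for on both strands, which were CAGCTG and CAGGTG (E-box sequences, the second bound by E2A proteins), CCCNNGGG (read by Ebf1), TGGGAA (Ikaros), TGTGGT (Runx) and TGTTTAC (forkhead factors).
Igll1, chr16:16863986-16864235, minus strand: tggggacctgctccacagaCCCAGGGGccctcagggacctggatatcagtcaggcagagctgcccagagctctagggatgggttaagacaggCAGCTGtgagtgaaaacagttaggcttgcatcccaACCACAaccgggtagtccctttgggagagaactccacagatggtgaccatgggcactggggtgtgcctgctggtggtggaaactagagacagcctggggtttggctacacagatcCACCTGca
Vpreb1, chr16:16869256-16869505, minus strand: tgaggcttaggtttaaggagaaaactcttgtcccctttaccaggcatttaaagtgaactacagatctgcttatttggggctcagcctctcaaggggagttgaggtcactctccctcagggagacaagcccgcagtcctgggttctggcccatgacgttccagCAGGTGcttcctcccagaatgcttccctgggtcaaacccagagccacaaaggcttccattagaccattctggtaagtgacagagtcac
Rag1, chr2:101649533-101649782, minus strand: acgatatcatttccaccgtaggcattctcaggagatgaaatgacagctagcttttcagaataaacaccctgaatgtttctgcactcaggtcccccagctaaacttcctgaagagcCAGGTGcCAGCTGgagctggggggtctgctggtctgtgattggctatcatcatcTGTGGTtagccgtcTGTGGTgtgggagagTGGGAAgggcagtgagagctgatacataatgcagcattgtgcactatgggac
Cd79a, chr7:24897247-24897380, plus strand: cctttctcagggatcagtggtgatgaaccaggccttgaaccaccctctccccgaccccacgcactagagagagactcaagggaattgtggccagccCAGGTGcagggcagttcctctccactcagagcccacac
The stretch before Vpreb1 overlaps an exon of a longer noncoding Vpreb1 transcript, and the stretch of Cd79a is the 134 bases that precede the start in the deposited table, since the RefSeq start lies downstream of it. RefSeq promoter sequences matched 7 of the 9 members, the others being Ighm and Cd79b.

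The searched letters were common everywhere. CAGGTG or its reverse stood in 17.2% of the 32851 RefSeq promoters of the same 250 bases, TGGGAA in 21.6%, TGTGGT in 14.0%, CCCNNGGG in 11.8% and TGTTTAC in 3.17%, and CAGCTG in 4271 of them. The Igll1 promoter held 1 match each to CCCNNGGG and TGTGGT and to both E-box sequences, and the Rag1 promoter held both E-box sequences and TGGGAA 1 time each and TGTGGT 2 times. Vpreb1, Cd79a and Blnk held CAGGTG alone, and the promoters of Rag2 and Dntt held none of the 6 motifs. A match says only that these letters are there.

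All 9 members had higher RNA levels in the B lineage than in other nuclei, at least 2-fold in each library. The minimum for a gene was 20 UMIs per library over the nuclei compared, which 10614 genes and all 9 members reached, and 4.97% of those genes (528) were at least 2-fold higher in both libraries. At least 2-fold lower were 6.07% of genes and 0 of 9 members. The median ratio was 8.42 over the members in library 1 and 12.45 in library 2, beside 1.045 and 1.075 over all genes that passed. With at least 500 genes required per nucleus, 7 of 9 were counted, because Rag1 and Rag2 had 12 and 8 UMIs left in library 2, under the minimum of 20, while their ratios (7.95 and 2.19, and 3.775 and 10.95) stayed over 2. These counts describe nuclei of 1 pool per library, and the clusters were named from other genes of the same nuclei.

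**Figure D1:**
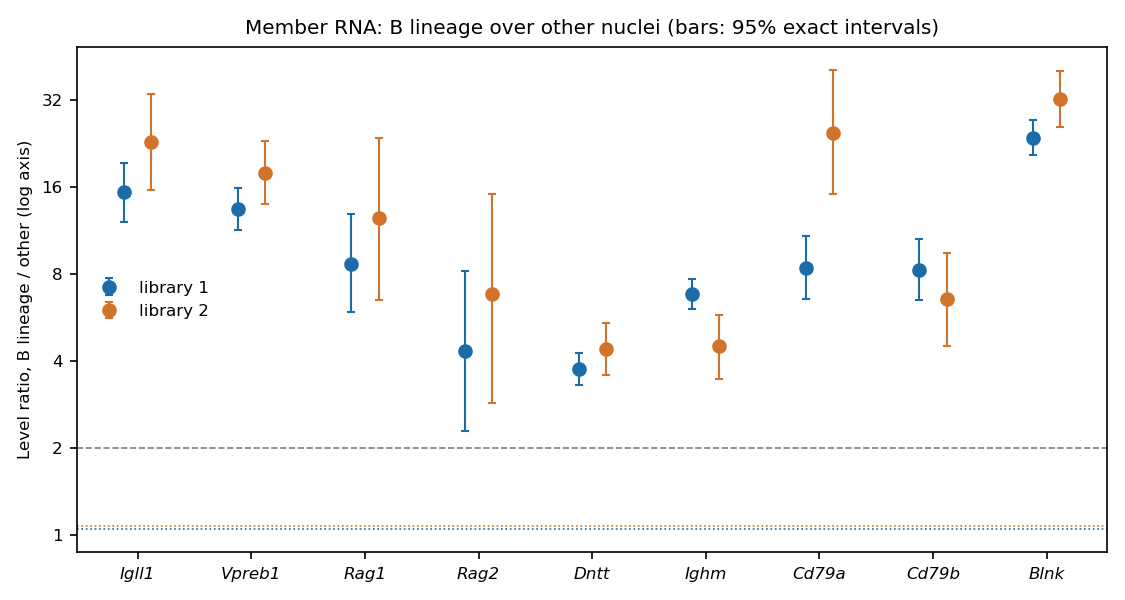
Ratio of the level in B lineage nuclei to the level in all other nuclei (log axis) for each of the 9 members in library 1 and library 2, with 95% exact conditional intervals. The dashed line marks a ratio of 2 and the dotted lines the median over all genes that passed the minimum, and every member lies above 2 in both libraries, with Blnk at 23.7 and 32.1.

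Among the surrogate light chain genes, Igll1 (ENSMUSG00000075370, chromosome 16, 16860671 to 16863985, minus strand) stood at 173.8 CPM in the B lineage of library 1 against 11.35 in other nuclei, a ratio of 15.3 [12.2 to 19.4]. In library 2 it stood at 91.63 against 4.011 CPM, a ratio of 22.9 [15.7 to 33.6]. Of the 430 and 122 UMIs of Igll1, 77.9% and 61.5% lay in the B lineage. Vpreb1 (ENSMUSG00000059305), which starts 5.27 kb from Igll1 on the same strand, stood at 307.1 against 22.95 CPM in library 1 and at 182 against 10.15 in library 2. The ratios were 13.4 [11.4 to 15.8] and 17.9 [14.0 to 23.01]. Vpreb1 is nearly identical in sequence to Vpreb2, so the split of reads between the pair is uncertain.

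Within the B lineage, the level of the surrogate light chain genes differed between clusters. Igll1 stood at 151.7 CPM [132.7 to 172.7] in pro-B-like nuclei of library 1, at 423 [344.2 to 514.5] in cluster 9 and at 33 [12.11 to 71.82] in mature B-like nuclei. In library 2 the same order held, with 77.46 [57.11 to 102.7] in pro-B-like nuclei, 230.8 [152.1 to 335.8] in cluster 9 and no UMI in mature B-like nuclei. Vpreb1 stood at 282.2 [256.1 to 310.4], 685.3 [583.8 to 799.3] and 22 CPM [5.99 to 56.3] in the pro-B-like, cluster 9 and mature B-like nuclei of library 1. In library 2 it stood at 185.6 [153.2 to 222.8], 290.7 [201.3 to 406.2] and 0 CPM, and there the intervals of pro-B-like nuclei and cluster 9 overlapped. The 0 of 81892 UMIs in mature B-like nuclei of library 2 set a floor of 36.6 CPM (3 counts of that library and cluster), and against this floor Igll1 was at least 2.11-fold and Vpreb1 at least 5.07-fold lower there than in pro-B-like nuclei. The floor is tighter than the interval of the ratio, whose upper limit was 0.605 for Igll1 and 0.247 for Vpreb1.

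**Figure D2:**
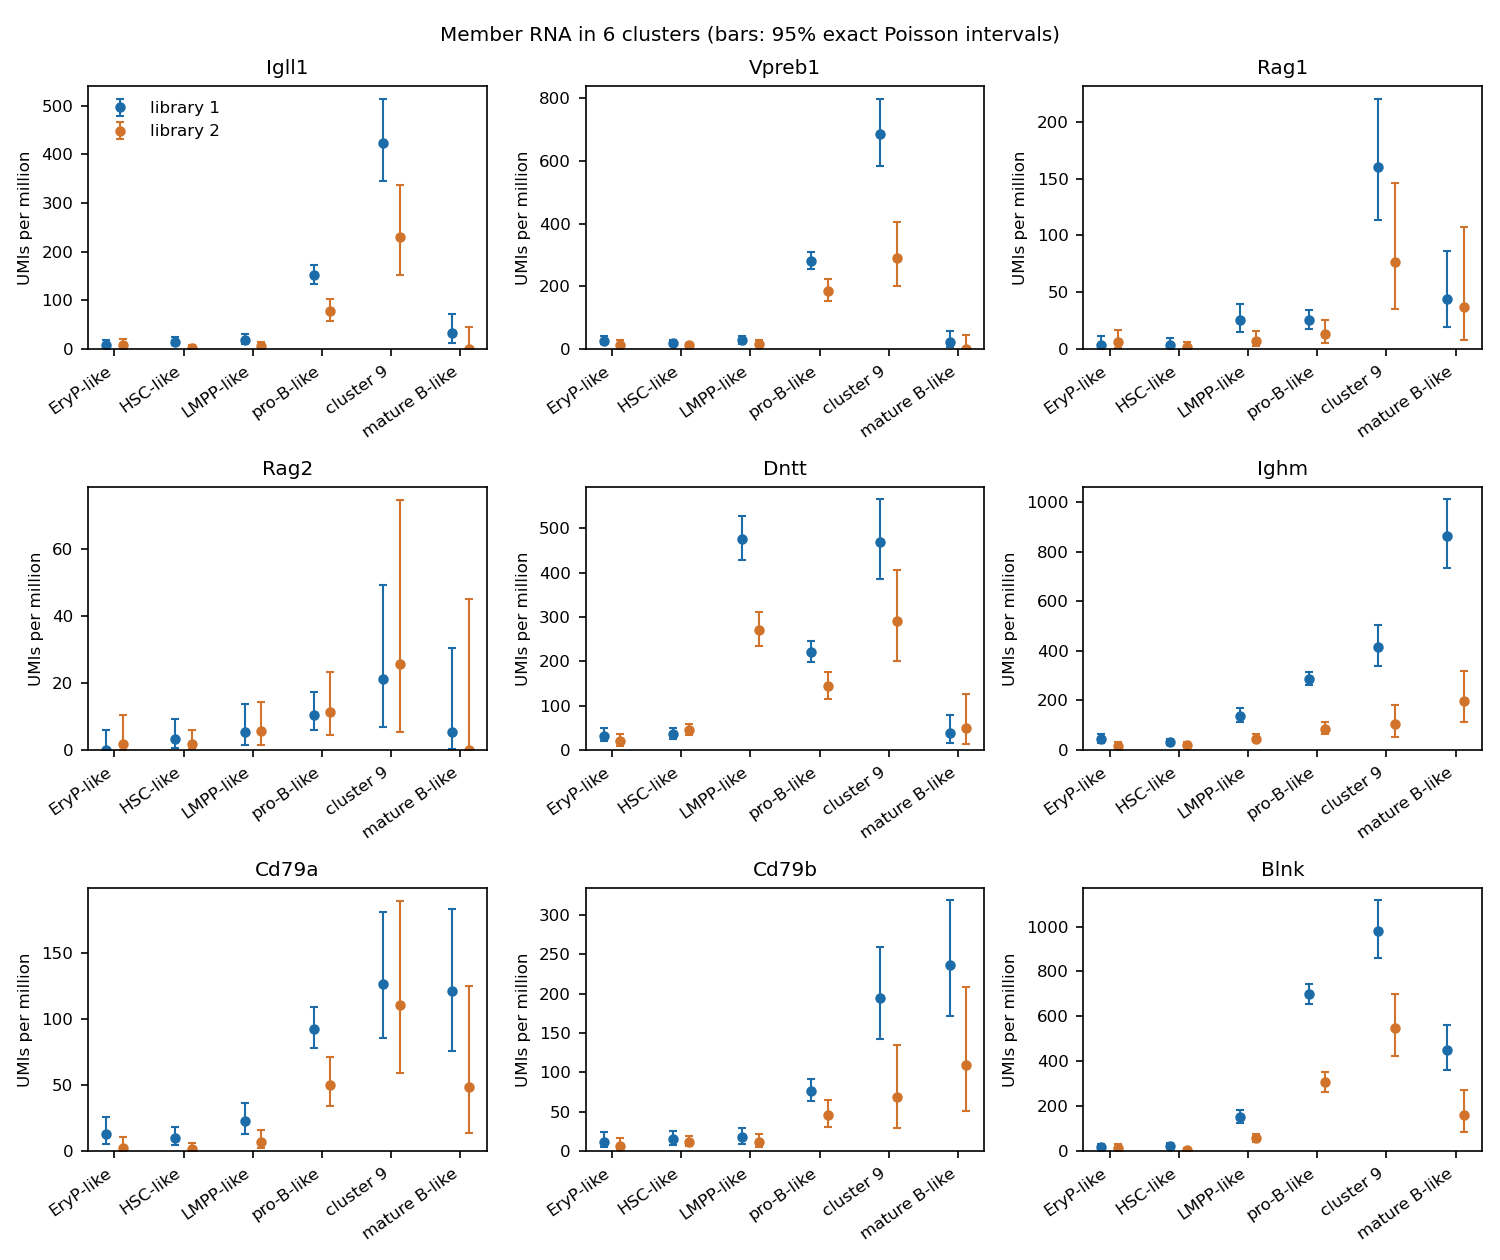
Level of each member (CPM, one panel per gene with its own axis) in EryP-like, HSC-like, LMPP-like, pro-B-like, cluster 9 and mature B-like nuclei of library 1 and library 2, with 95% exact Poisson intervals. Igll1, Vpreb1 and Rag1 are highest in cluster 9 in both libraries (Rag1 at 160.7 and 76.94), Ighm in mature B-like nuclei (863.5 and 195.4) in library 1 and library 2, and Dntt stands at 476.2 and 270.4 in LMPP-like nuclei.

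Between pro-B-like and EryP-like nuclei, the share of nuclei with at least 1 UMI followed the levels. Igll1 was seen in 23.8% of pro-B-like nuclei of library 1 and 11.2% of library 2, against 1.45% and 1.14% of EryP-like nuclei, with median depths of 1815 and 1469.5 UMIs in pro-B-like and 1574.5 and 1292 in EryP-like nuclei. Vpreb1 was seen in 39.2% and 26.0% of pro-B-like against 4.36% and 1.99% of EryP-like nuclei. To remove the effect of depth, each nucleus was thinned to 500 UMIs outside the ribosomal RNA locus, which left out 61 and 70 pro-B-like and 26 and 105 EryP-like nuclei. Thinned, the shares with Igll1 were 11.8% and 6.05% against 0.629% and 1.22%, and with Vpreb1 22.2% and 19.75% against 2.83% and 1.63%. Both genes thus stood above the level in erythroid progenitors in each library. In LMPP-like nuclei the unthinned share with Vpreb1 was 4.31% and 2.59%, which cannot be told from the EryP-like share.

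Rag1 (ENSMUSG00000061311, chromosome 2, 101638282 to 101649501, minus strand), the catalytic part of the recombinase, was sparse, with 126 UMIs in library 1 and 43 in library 2. It stood at 43.58 CPM in the B lineage of library 1 against 5.02 in other nuclei, a ratio of 8.68 [5.93 to 12.9], and in library 2 at 24.43 against 1.963, a ratio of 12.45 [6.49 to 23.7]. Its first exon overlaps the gene B230118H07Rik, so its reads may be shared. Cluster 9 held the highest levels of Rag1 in the B lineage, 160.7 CPM [113.7 to 220.6] and 76.94 [35.18 to 146.1], against 25.18 [17.82 to 34.56] and 12.91 [5.574 to 25.44] in pro-B-like nuclei. Mature B-like nuclei held 44 CPM and 36.63 of Rag1, from 8 and 3 UMIs. The ratio of cluster 9 to pro-B-like nuclei was 6.385 [3.96 to 10.3] in library 1 and 5.96 [2.04 to 17.75] in library 2, which was the largest such ratio among the members in each library. Rag1 was nevertheless under the minimum of 20 UMIs per library for that comparison, with 17 UMIs in library 2. Thinned, Rag1 was seen in 12.9% of 147 nuclei of cluster 9 in library 1 against 2.71% of pro-B-like nuclei, while in library 2 only 20 nuclei of cluster 9 were deep enough.

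Rag2 (ENSMUSG00000032864, chromosome 2, 101624718 to 101632529, plus strand), the regulatory part of the recombinase, runs toward Rag1, with starts 24.8 kb apart, and had the fewest UMIs of all members, 44 and 31. It stood at 11.41 against 2.629 CPM in library 1 and at 12.22 against 1.792 in library 2, with ratios of 4.34 [2.29 to 8.22] and 6.82 [2.87 to 15.1]. The B lineage held 50% and 32.3% of its UMIs. Rag2 also overlaps B230118H07Rik, annotated on the opposite strand, and the sources used here do not say whether counting used the strand, so its UMIs may include that gene. The differences of Rag2 between cluster 9 (21.15 and 25.65 CPM, from 5 and 3 UMIs) and pro-B-like nuclei (10.6 and 11.3 CPM) were not detectable at this depth. No UMI of Rag2 was seen in the 344 EryP-like nuclei of library 1, for which the floor of 3 counts is 4.88 CPM and the upper limit of the interval 6 CPM.

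Dntt (ENSMUSG00000025014, chromosome 19, 41029275 to 41059525, plus strand) had the smallest B lineage share of UMIs among the members, 46.4% and 23.6%. Rag2 was near it in library 1 (50%) and Ighm in library 2 (23.9%). Outside the B lineage and LMPP-like nuclei, Dntt stood at 21.4 and 19.73 CPM and Ighm at 43.86 and 20.55. In the B lineage Dntt stood at 234 CPM against 62.27 in all other nuclei of library 1, and at 155.2 against 35.16 in library 2. The ratios were 3.76 [3.31 to 4.27] and 4.41 [3.59 to 5.40]. LMPP-like nuclei held 476.2 CPM [428.1 to 528.2] in library 1 and 270.4 [233.8 to 311.2] in library 2. That was above pro-B-like nuclei, with 220.6 [197.6 to 245.6] and 143.6 [115.3 to 176.7], and overlapped the intervals of cluster 9, with 469.5 [386.3 to 565.4] and 290.7 [201.3 to 406.2]. Mature B-like nuclei held 38.5 and 48.84 CPM and EryP-like nuclei 32.53 and 19.02, with overlapping intervals. Dntt was seen in 45.9% and 30.2% of LMPP-like nuclei against 5.52% and 2.28% of EryP-like nuclei, and thinned in 28.5% and 24.2% against 1.89% and 1.63%. The median depth of LMPP-like nuclei was 1697.5 and 1414 UMIs.

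LMPP-like nuclei were set against the other nuclei outside the B lineage, where all 9 members and 10280 genes passed the minimum. At least 2-fold higher in both libraries were 6 of 9 members (Rag1, Rag2, Dntt, Ighm, Cd79a and Blnk), beside 4.59% of all genes, and at least 2-fold lower were 0 of 9, beside 3.50%. Rag2 counted there on 4 and 4 UMIs, with ratios of 2.25 [0.554 to 6.83] and 3.59 [0.879 to 11], and Cd79a on 17 and 5 UMIs, with 2.10 [1.17 to 3.57] and 3.32 [0.985 to 8.92], so that these intervals reached below 1 in both libraries for Rag2 and in library 2 for Cd79a. Rag1 (18 UMIs in library 2) and Rag2 (18 and 17) had under 20 UMIs in the nuclei compared with, so they reached the minimum only with the LMPP-like UMIs counted in. Dntt had the largest ratio of the members, 22.25 [18.4 to 26.9] in library 1 and 13.7 [11.2 to 16.7] in library 2. The ratios of Blnk were 8.57 and 7.72, of Rag1 8.37 [4.31 to 16.06] and 4.24 [1.23 to 11.84], and of Ighm 3.15 and 2.16. The surrogate light chain genes did not reach 2-fold, with 1.75 and 1.42 for Igll1 and 1.24 and 1.71 for Vpreb1, and neither did Cd79b, with 1.40 and 1.36.

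Ighm (ENSMUSG00000076617, chromosome 12, 113418558 to 113422730, minus strand), the constant part of the mu heavy chain, stood at 357.4 against 52.35 CPM in library 1 and at 98.96 against 22.02 in library 2. The ratios were 6.83 [6.05 to 7.72] and 4.50 [3.46 to 5.79]. It was highest in mature B-like nuclei, with 863.5 CPM [733.7 to 1010] and 195.4 [111.7 to 317.3], against 287.5 [261.1 to 315.9] and 85.53 [64.07 to 111.9] in pro-B-like nuclei. UMIs of Ighm were also seen in 6.395% and 1.99% of EryP-like nuclei, against 39.3% and 13.02% of pro-B-like nuclei, and thinned in 4.09% and 1.63% against 20.2% and 8.92%. Ighm therefore had a low level in nuclei that should not express it, and the B lineage stood above that level in each library.

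The libraries differed in the level of Ighm. In pro-B-like nuclei its level in library 2 was 0.298 [0.219 to 0.396] of that in library 1. For Blnk this ratio was 0.439 [0.374 to 0.513]. All 9 members were counted there, although Rag1 had 8 UMIs in library 2 and Rag2 had 16 and 7, under the minimum used elsewhere. That minimum was thus not required of each library in this comparison, and a gene could count as lower on few UMIs in library 2. Among 6868 genes tested there, 25.0% were at least 2-fold lower in library 2, and 2 of 9 members were, a share near that of all genes, while the median gene stood at 0.64. With the ribosomal RNA locus taken out of the totals, the median became 0.811, Ighm 0.377 and Blnk 0.556, so Blnk no longer reached 2-fold and Ighm did. The other 7 members had ratios from 0.511 (Igll1) to 1.07 (Rag2) over all UMIs, and from 0.647 to 1.35 without the locus. Over all UMIs, the Ighm ratio was 0.248 in cluster 9, 0.226 in mature B-like, 0.321 in LMPP-like and 0.4685 in the nuclei outside both the B lineage and LMPP-like, where the median gene stood at 0.594, 0.555, 0.6255 and 0.665. Without the locus, Ighm stood at 0.331, 0.297, 0.413 and 0.560 in the same groups, so outside the B lineage and LMPP-like nuclei it was not 2-fold lower. In LMPP-like nuclei Rag1 (0.274), Igll1 (0.298) and Cd79a (0.307) had ratios under that of Ighm. They rested on 5, 4 and 5 UMIs in library 2, and their intervals included the Ighm ratio. The share of UMIs from the ribosomal RNA locus also differed between the libraries, at 40.9% and 53.3% in pro-B-like nuclei. Its part in these ratios beyond the values above was not tested, and no label allows these differences to be tied to a sample.

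Cd79a (ENSMUSG00000003379, chromosome 7, 24897381 to 24902197, plus strand) and Cd79b (ENSMUSG00000040592, chromosome 11, 106311341 to 106314762, minus strand) encode the signalling chains of the receptor. Cd79a stood at 99.61 against 11.83 CPM in library 1 and at 58.64 against 2.389 in library 2, ratios of 8.42 [6.57 to 10.8] and 24.5 [15.1 to 40.6]. The intervals of the ratio did not overlap, and outside the B lineage and LMPP-like nuclei the level of Cd79a in library 2 was 0.194 [0.117 to 0.312] of that in library 1, beside a median gene at 0.665. Cd79b stood at 105.8 against 12.79 and at 54.98 against 8.363 CPM, ratios of 8.28 [6.52 to 10.6] and 6.57 [4.51 to 9.45]. The pair differed in mature B-like nuclei, where Cd79b was at 3.10 and 2.43 times its level in pro-B-like nuclei and Cd79a at 1.30 and 0.976 times.

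Blnk (ENSMUSG00000061132, chromosome 19, 40928927 to 40994535, minus strand), the adaptor that links the receptor to downstream enzymes, had the largest ratio of the members in each library, with 709.7 against 30 CPM and 326.2 against 10.15. The ratios were 23.7 [20.7 to 27.2] and 32.1 [25.8 to 40.2]. It was seen in 61.7% and 35.4% of pro-B-like nuclei against 2.035% and 1.71% of EryP-like nuclei, and thinned in 41.5% and 25.5% against 0.629% and 0.406%. Cluster 9 held 981.4 CPM and 547.1, above pro-B-like nuclei with 698.3 and 306.6, and mature B-like nuclei held 451 and 158.7. LMPP-like nuclei, with 153 CPM [126.3 to 183.6] and 55.5 [39.63 to 75.54], lay between the B lineage and the EryP-like level of 17.9 and 15.2.

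For cluster 9 against pro-B-like nuclei, 7 of the 9 members passed the minimum (not Rag1 and Rag2). Igll1 and Dntt were at least 2-fold higher in both libraries, 2 of 7 beside 3.28% of 3045 genes, and 0 of 7 were lower, beside 5.39%. Their ratios were 2.79 and 2.98 for Igll1 and 2.13 and 2.02 for Dntt. For mature B-like against pro-B-like nuclei, the same 7 passed. Ighm and Cd79b were higher, 2 of 7 beside 2.41% of 2861 genes, and Igll1, Vpreb1 and Dntt were lower, 3 of 7 beside 7.65%. Cd79a (1.30 and 0.976) and Blnk (0.646 and 0.518) were in neither count. Mature B-like nuclei held 6 and 0 UMIs of Igll1, 4 and 0 of Vpreb1 and 7 and 4 of Dntt. These 3 members thus reached the minimum only with the pro-B-like UMIs counted in. The median depth of cluster 9 (842 and 775 UMIs) and of mature B-like nuclei (801 and 821) lay under that of pro-B-like nuclei.

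Several members were often seen in the same nucleus. At least 1 of the 9 had a UMI in 91.1% and 72.7% of pro-B-like nuclei, 94.1% and 74.05% of cluster 9, 77.9% and 43.5% of mature B-like nuclei, 66.3% and 42.55% of LMPP-like nuclei and 17.7% and 10.5% of EryP-like nuclei. At least 3 of the 9 were seen in 42.55% and 12.5% of pro-B-like nuclei, against 6.94% and 1.08% of LMPP-like nuclei and 1.45% and 0% of EryP-like nuclei. After thinning to 500 UMIs, the share with any member was 77.1% and 57.01% in pro-B-like nuclei and 10.1% and 7.32% in EryP-like nuclei. The most UMIs found in 1 pro-B-like nucleus of library 1 were 13 for Blnk and 6 each for Ighm and Vpreb1.

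Likeness to other genes was measured as the Pearson correlation of log levels over 32 points, the 16 clusters in each library, among 8825 genes that had 100 UMIs or more. The points share libraries and depth, so these values are descriptions. Igll1 and Vpreb1 were each other's nearest gene (r = 0.855), followed by Gfra2 for both (0.798 and 0.799), then Tifa for Igll1 (0.796) and Vpreb2 for Vpreb1 (0.780). Rag1 was nearest to Gfra1 (0.906), Ebf1 (0.866) and Gpat3 (0.844), and Dntt to Gfra1 (0.836), Arpp21 (0.835) and Tspan13 (0.824). Ighm was nearest to Bach2 (0.890), Pou2af1 (0.888) and Pik3ap1 (0.881), and genes near to Cd79a included Ebf1 (0.888) and Gfra1 (0.837). Cd79b was nearest to Dusp6 (0.865), Pou2af1 (0.829) and Pax5 (0.794). Genes near to Blnk included Akap12 (0.896) and Pax5 (0.896). Rag2, with 75 UMIs in all, was too sparse for this measure. Apart from the surrogate light chain pair, no member had another member among its 3 nearest genes.

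Of 33 further genes of the pathway, 27 passed the minimum in the comparison of B lineage with other nuclei, 12 were at least 2-fold higher in both libraries, 1 was lower and 14 were neither, beside 4.97% of all genes higher and 6.07% lower. Their median ratio was 2.01 in library 1 and 1.975 in library 2. Among 7 listed light and heavy chain genes, 4 passed and all 4 were higher, namely Vpreb2 (11.4 and 15.1), Vpreb3 (11.5 and 15.7), Igkc (5.19 and 3.88) and Ighd (13.6 and 10.7). Vpreb2 had 18 UMIs in other nuclei of library 2, so it reached the minimum only with the B lineage UMIs counted in. Among 14 signalling genes, 13 passed and 7 were higher. Among these were the kinases Syk (2.71 and 2.47), Blk (7.15 and 10.2) and Prkcb (11.2 and 9.86), the adaptor Pik3ap1 (4.45 and 3.445) and the phosphatase Inpp5d (2.51 and 2.50). Blk had 17 and 14 UMIs in other nuclei, so it too reached the minimum only with the B lineage UMIs counted in. Lyn (1.65 and 1.30), Btk (1.525 and 1.33), Plcg2 (1.70 and 1.61), Vav1 and Ptpn6 did not reach 2-fold, and Bcl2, which protects cells from apoptosis, was lower at 0.298 and 0.461. Among 12 genes of the recombinase cofactors and of end joining, 10 passed and 1 was higher, Hmgb1 (2.71 and 2.33), a DNA-bending cofactor of the recombinase. Its relative Hmgb2 (2.01 and 1.90) and the end-joining genes Xrcc6 (2.265 and 1.975), Xrcc4 (1.595 and 2.42), Prkdc (0.826 and 0.7085) and Atm (0.782 and 0.967) were not. The 2 genes of this group that fell under the minimum had ratios over 2 in each library. The share that was higher was thus 4 of 4 for chain genes, 7 of 13 for signalling and 1 of 10 for the general repair genes and cofactors, and these shares, of few genes, were not tested against each other or against all genes.

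In chromatin, the windows of the members held 122 peaks, of which 112 passed a minimum of 100 counts per library. At least 2-fold higher in the B lineage in both libraries were 28 of 112, beside 6.26% of 150626 peaks, and at least 2-fold lower were 17 of 112, beside 28.2%. Some of these peaks had under 100 counts in the B lineage or in other nuclei, since the minimum was set on both together. The median ratio of all peaks was 0.721 and 0.7325, so a ratio near 1 already lay above the median peak. Summed over all windows, the ATAC level in the B lineage was 1.62 times that in other nuclei in each library. Within 10 kb of a member's start it was 1.97 in each library, and over the 9 peaks within 1 kb of a member's start it was 5.39 and 5.16. The windows also held promoters of other genes, and without those 28 peaks the ratio was 2.18 and 2.13. Windows of neighbours overlap, with 15 peaks shared by Igll1 and Vpreb1, 14 by Rag1 and Rag2 and 14 by Dntt and Blnk.

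**Figure D3:**
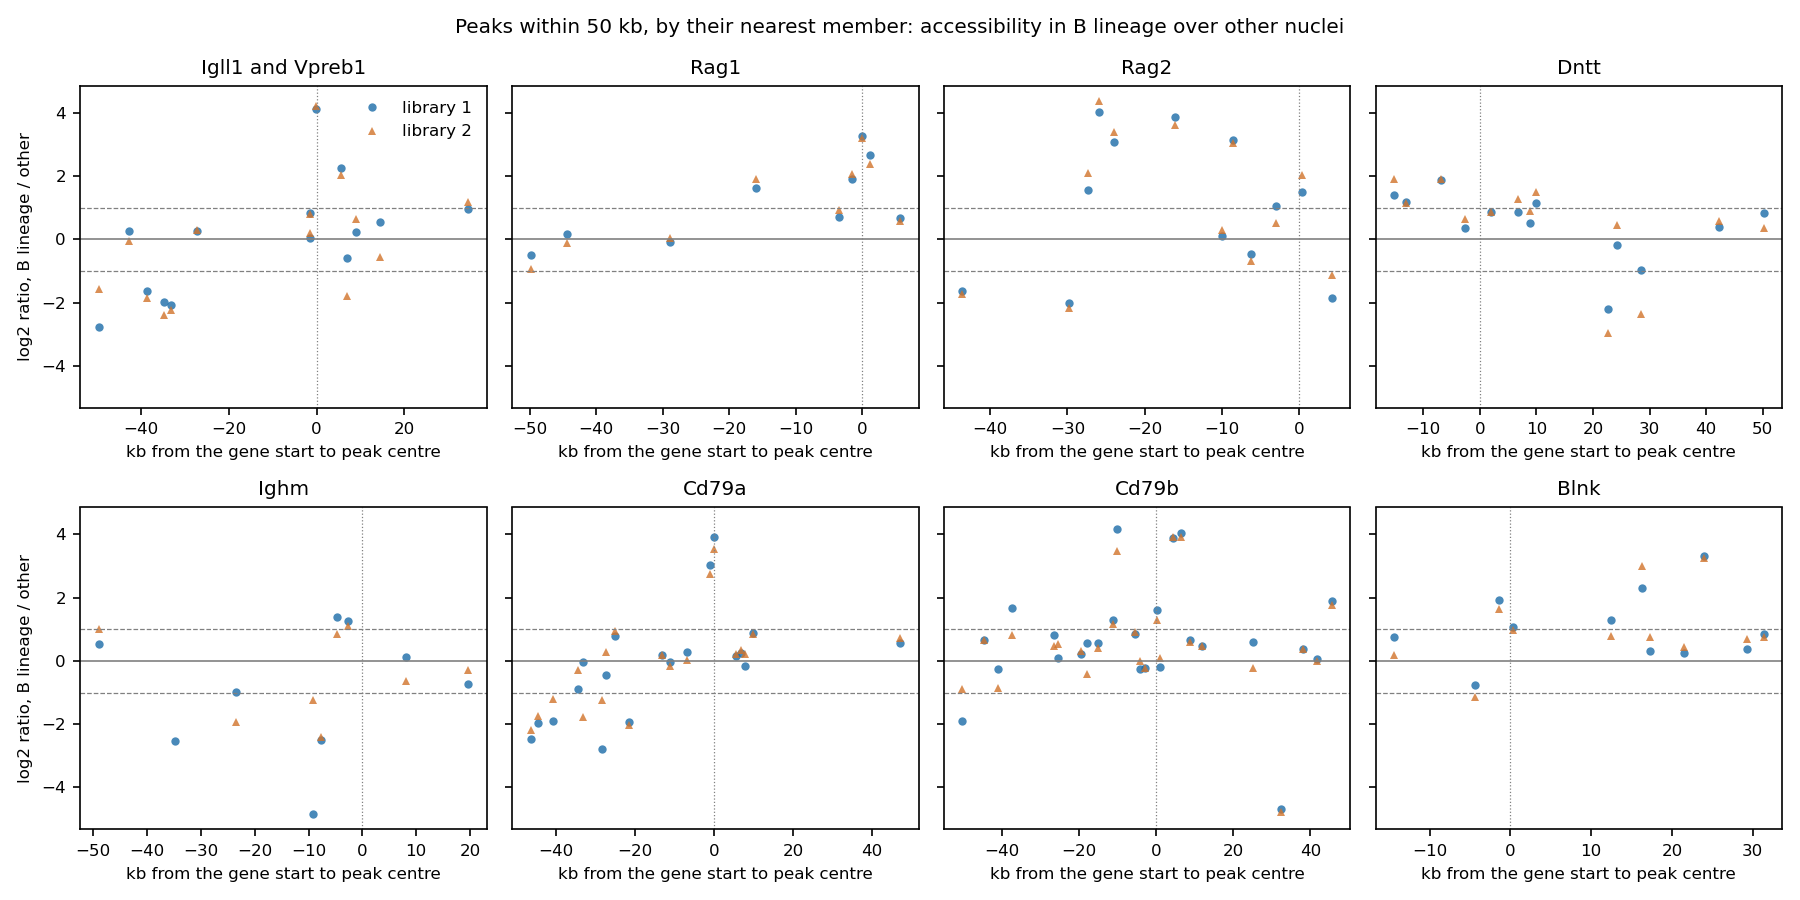
Log2 ratio of the ATAC level in B lineage to other nuclei for each window peak that passed the minimum, against its distance in kb from the start of the nearest member, in library 1 and library 2. Dashed lines mark 2-fold differences and peaks with 0 counts on either side are not drawn, and the highest points include the Igll1 promoter and distal peaks of Rag2 and Cd79b, all over 14-fold.

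The promoter peak of Igll1 (chr16:16863654-16864461) lies over the sequence printed above and covers the start of the gene. It stood at 56.05 CPM in the B lineage and 3.193 in other nuclei of library 1, and at 60.63 against 3.261 in library 2, ratios of 17.55 [14.68 to 21.08] and 18.59 [15.36 to 22.54]. By cluster it stood at 62.0 and 71.6 in cluster 9, at 58.8 and 62.6 in the pro-B-like cluster and at 20.3 and 20.7 in mature B-like nuclei, and at 10.6 or less in every other cluster. A second peak, 5.64 kb downstream of the start, had ratios of 4.74 and 4.11 and stood at 23.8 and 27.9 in cluster 9 against 10.6 and 9.5 in pro-B-like nuclei. Vpreb1 had no peak within 1 kb of its start, and the nearest, at 1.59 kb and over the promoter of Top3b, was alike in B lineage and other nuclei with ratios of 1.03 and 1.16. The neighbouring genes thus shared a pattern of RNA while a B lineage peak was called at the start of Igll1 and none at the deposited start of Vpreb1. The annotated 5′ end of Vpreb1, at 16870843, lies further upstream, within the peak at 1.59 kb. Whether the likeness of Vpreb1 and Vpreb2 also affected the ATAC counts at Vpreb1 was not tested.

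At the Rag locus, 8 of 17 peaks tested in the Rag1 window and 10 of 18 in the Rag2 window were at least 2-fold higher, and 1 and 3 were lower, beside 6.26% of all peaks higher and 28.2% lower. These counts are not separate, since every higher or lower peak of the Rag1 window lay in the Rag2 window too. The Rag1 promoter peak (chr2:101649146-101650026) stood at 13.03 against 1.352 CPM in library 1 and 12.96 against 1.411 in library 2, ratios of 9.63 [7.14 to 13.1] and 9.185 [6.392 to 13.1]. It was highest in cluster 9 (17.3 and 17.3), followed by pro-B-like nuclei (13.1 and 13.1). The Rag2 promoter peak had ratios of 2.84 and 4.13. The Rag genes are known to have distal enhancers upstream of Rag2, and the larger ratios lay on that side, within introns of B230118H07Rik. The peak 25.9 kb before Rag2 (chr2:101598458-101599303) stood at 22.93 against 1.394 in library 1 and 21.02 against 1.004 in library 2, ratios of 16.45 [12.52 to 21.87] and 20.94 [14.9 to 29.6]. Others lay at 24.0 kb (8.39 and 10.45), at 16.1 kb (14.5 and 12.15) and at 8.63 kb (8.79 and 8.31). The peak at 25.9 kb was open in each B lineage cluster, at 23.6 and 22.98 in pro-B-like nuclei, 22.9 and 12.8 in cluster 9 and 16.6 and 19.2 in mature B-like nuclei, with overlapping intervals. Lower peaks lay on that side too, at 43.6 kb (0.321 and 0.301) and 29.8 kb (0.246 and 0.220), from at most 9 B lineage counts in a library. A peak 4.21 kb downstream of the Rag2 start was also lower, at 6.15 and 9.78 in the B lineage against 22.3 and 21.4 elsewhere, ratios of 0.276 and 0.458.

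The centres of 2 distal peaks are shown because they had the largest or nearly the largest ratios and lay away from any promoter. Capitals again mark the 6 motifs, of which TGTGGT stood in 22.4% and CAGGTG in 13.4% of the 201-base centres of 168752 peaks, CAGCTG in 14.3%, TGGGAA in 17.9%, CCCNNGGG in 7.24% and TGTTTAC in 2.45%.
Rag2 distal peak, chr2:101598780-101598980, plus strand: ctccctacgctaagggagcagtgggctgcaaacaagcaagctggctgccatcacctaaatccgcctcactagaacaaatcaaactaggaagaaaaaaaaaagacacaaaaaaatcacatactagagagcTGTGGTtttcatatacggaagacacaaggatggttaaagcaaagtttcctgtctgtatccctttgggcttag
Cd79b distal peak, chr11:106308276-106308476, plus strand: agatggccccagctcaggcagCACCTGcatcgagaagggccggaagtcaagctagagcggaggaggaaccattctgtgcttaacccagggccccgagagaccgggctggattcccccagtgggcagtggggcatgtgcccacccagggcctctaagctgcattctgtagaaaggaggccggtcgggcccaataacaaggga
Each centre held 1 match, to TGTGGT in the first and to CAGGTG (as CACCTG) in the second.

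The promoter peaks of the signalling chains differed from each other. The Cd79a peak at its start (chr7:24896970-24897856) stood at 42.93 against 2.85 CPM in library 1 and 38.75 against 3.352 in library 2, ratios of 15.06 [12.43 to 18.35] and 11.56 [9.329 to 14.3]. At the start of Cd79b lay 2 peaks with a summed ratio of 2.04 and 1.855, of which 1 had ratios of 0.878 and 1.074 and the other 3.07 and 2.43. The latter was highest in mature B-like nuclei (32.1 and 39.9) and lower in cluster 9 (20.6 and 16.6) and pro-B-like nuclei (11.7 and 11). The RNA levels of Cd79b had the same order. Their intervals overlapped between cluster 9 and mature B-like nuclei in each library, and between all of these clusters in library 2. Higher ratios lay away from the start, at 16.56 [12.62 to 21.98] and 14.95 [11.26 to 19.85] for the intergenic peak 6.39 kb downstream (chr11:106307927-106308826), 14.8 and 15.2 at 4.51 kb downstream, and 18.1 and 11.1 for a peak over an exon of Scn4a 10.2 kb upstream. The window of Cd79a held 2 of 19 tested peaks that were at least 2-fold higher and 5 that were lower, and that of Cd79b 6 of 25 higher and 1 lower, beside 6.26% of all peaks higher and 28.2% lower.

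Blnk had the largest RNA ratio but not the largest promoter ratio, with 2.11 and 1.95 at its promoter peak. That peak was also open in dendritic progenitor-like nuclei, at 27.8 and 21.4 in the conventional and 17.5 and 14.99 in the plasmacytoid kind, against 22.4 and 22.8 in the pro-B-like cluster and 42.8 and 26.6 in mature B-like nuclei. A peak in an intron of Blnk, 24.0 kb from the start, had ratios of 10.0 and 9.57. In the window, which shares 14 peaks with that of Dntt, 7 of 19 tested peaks were higher and 0 lower, beside 6.26% and 28.2% of all peaks. Some of the higher peaks lay nearer to Dntt than to Blnk, among them the peak 6.95 kb before the start of Dntt that is described below. Dntt had no peak within 1 kb of its start. The nearest upstream peak that was at least 2-fold higher, 6.95 kb before the start (chr19:41021972-41022888), stood at 37.54 against 10.28 in library 1 and 34.84 against 9.218 in library 2, ratios of 3.65 [3.20 to 4.17] and 3.78 [3.12 to 4.55]. Over clusters it stood at 41.7 and 36.2 in cluster 9, 39.9 and 36.4 in the pro-B-like cluster, 31.1 and 29.4 in LMPP-like, 21.98 and 19.6 in HSC-like, 9.1 and 17.8 in mature B-like and 7.5 and 8.5 in EryP-like nuclei. The intervals of the peak overlapped between the pro-B-like [35.7 to 44.4 and 30 to 43.8] and LMPP-like clusters [25.8 to 37.2 and 23.9 to 35.8] in each library, whereas those of Dntt RNA did not.

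The heavy chain locus is the one window in which the rearrangement itself can touch the counts, since D-to-J joining commonly deletes the DNA between the chosen segments. The recombination signals of the D segment nearest to the J segments (Ighd4-1) and of the J segment nearest to the D segments (Ighj1) are shown because 1 peak lies over this D segment and the joins act between these segments. Each is written in the direction of Ighm on GRCm38, with the 7-base heptamer and 9-base nonamer positions in capitals, and spacers of 12 bases for D and 23 for J.
Ighd4-1, chr12:113430500-113430566, minus strand: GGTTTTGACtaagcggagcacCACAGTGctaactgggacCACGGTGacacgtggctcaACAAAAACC
Ighj1, chr12:113429781-113429872, minus strand: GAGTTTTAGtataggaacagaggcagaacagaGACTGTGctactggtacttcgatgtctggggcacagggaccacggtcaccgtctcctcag
The heptamer before Ighd4-1 (CACAGTG) and the one after it (CACGGTG) each matched 6 of the 7 letters of their consensus, CACTGTG before and CACAGTG after a segment, and the one before Ighj1 (GACTGTG) matched 6 of 7. Of 17 annotated D segments, 7 had all 7 letters after the segment and 16 had at least 6, and 12 had at least 6 before it. The letters CACAGTG on either strand stood in 2.41% of 67-base peak centres.

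The 4 J segments lie at 113428514 to 113429833 and the 17 D segments at 113430528 to 113482192. The peak over Ighd4-1 (chr12:113430042-113430963) stood at 1.583 CPM in the B lineage and 8.956 in other nuclei of library 1, and at 1.589 against 8.43 in library 2, ratios of 0.177 [0.103 to 0.285] and 0.1885 [0.0723 to 0.401]. Pro-B-like nuclei stood at 1.485 and 1.62, and in cluster 9 at 0 and 0.754, from 0 and 1 counts. LMPP-like nuclei were at 0.980 and 1.39 times the level outside the B lineage and mature B-like nuclei at 0.598 and 0.351 times. Low levels of this peak were not particular to the B lineage, since EryP-like nuclei (1.3 and 2.8) were low too. Pro-NK/T-like nuclei stood at 1.7 and 4.6, from 3 and 5 counts. In library 2 their interval [0.768 to 14.8] included the outside level. Plasmacytoid dendritic progenitor-like nuclei were highest (13 and 11.7).

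Summed over the 9 window peaks upstream of the J segments, pro-B-like nuclei stood at 6.59 CPM in library 1 and 7.93 in library 2, against 19.4 and 18.7 in nuclei outside the B lineage. The ratios were 0.339 [0.254 to 0.445] and 0.425 [0.272 to 0.633], with 0.121 [0.0329 to 0.311] and 0.364 [0.109 to 0.888] in cluster 9, 0.468 [0.208 to 0.909] and 0.475 [0.0979 to 1.39] in mature B-like nuclei, and 1.16 [0.913 to 1.45] and 1.18 [0.917 to 1.49] in LMPP-like nuclei. The 2 peaks between the J segments and the start of Ighm were at 2.54 [2.23 to 2.88] and 1.97 [1.59 to 2.42] times the outside level in pro-B-like nuclei, and at 2.315 [1.61 to 3.24] and 2.26 [1.18 to 3.93] times in the mature B-like cluster. In cluster 9 the ratio was 2.63 [2.04 to 3.34] in library 1 and 1.48 [0.841 to 2.41] in library 2, where the interval includes 1. LMPP-like nuclei, at 1.275 [0.996 to 1.61] and 1.24 [0.954 to 1.59], were not separated from the outside level. Single peaks departed from these sums. Upstream, the peak 48.9 kb from the start of Ighm had B lineage ratios of 1.45 and 2.03, and on the far side of the Ighm start, 8.18 and 19.7 kb downstream, the ratios were 1.095 and 0.646 and 0.596 and 0.823. The window as a whole had a ratio near 1 (1.25 and 1.08), beside a median peak at 0.721 and 0.7325. Of its 13 peaks, 9 passed the minimum. Of these, 3 were at least 2-fold lower in the B lineage and 1 was higher, beside 28.2% and 6.26% of all peaks, so the share that was lower was near that of all peaks. EryP-like nuclei were low on both sides, at 4.01 and 5.22 upstream of the J segments and 6.35 and 3.92 between them and Ighm. A lost copy of the DNA and closed chromatin lower these counts alike and cannot be told apart here.

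**Figure D4:**
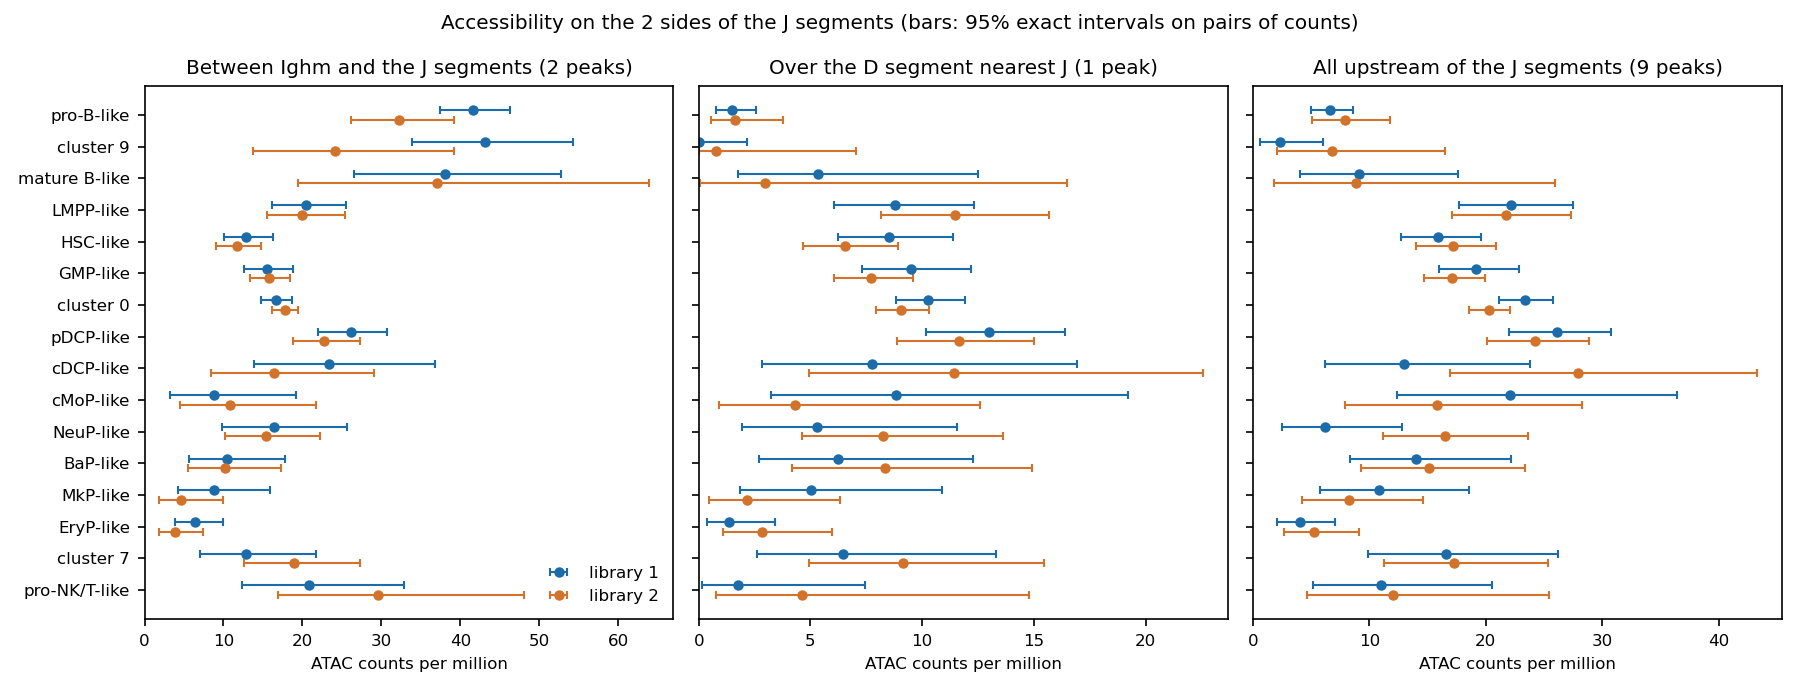
ATAC level (CPM) in each of the 16 clusters and both libraries for 3 sets of peaks of the Ighm window, the 2 peaks between Ighm and the J segments, the 1 peak over the D segment Ighd4-1 and all 9 peaks upstream of the J segments, with 95% exact Poisson intervals on pairs of counts. Pro-B-like nuclei are above the level outside the B lineage in the first set (2.54 and 1.97 times) and below it in the last (0.339 and 0.425 times).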

How the data were processed

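Bone marrow HSPCs of 1 Ctrl and 1 Lig sample were measured by single-nucleus RNA and ATAC sequencing of the same nuclei. The deposited matrix holds raw counts (UMIs per gene, ATAC counts per peak), which the authors made with Cell Ranger ARC 2.0.0 on GRCm38 (mm10), with 1 peak set for both libraries. Seurat 4.0.3 and Signac 1.3.0 are also named in the submitters' processing notes. Of the nonzero peak entries, 82.5% were even, so ATAC intervals were computed on pairs of counts. The matrix held 18961 barcodes, and 13619 passed with 200 or more genes and between 1000 and 50000 ATAC counts. It had 0 other columns of per-sample values.

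RNA (30 principal components) and ATAC (components 2 to 30 of latent semantic indexing), without the members and their window peaks, were corrected between libraries with anchors, joined by weighted nearest neighbours and clustered at resolution 0.8 (Seurat 5.3.0, R 4.3.3). Such a correction can also remove true differences between libraries. A name needed at least 3 listed markers raised by 1 or more on the log2 scale with 10 or more counts, and 1 of them among the 10 leading genes. Doublets were kept, and removing the top 8% of Scrublet scores (scanpy 1.11.5) per library was an alternative. Other tools were numpy 2.4.6, scipy 1.17.1, scikit-learn 1.9.0 and matplotlib 3.10.9.

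Counts were summed per cluster and library and divided by the summed counts of all genes or peaks. A gene was counted as higher or lower at a ratio of at least 2 in each library, with at least 20 UMIs per library (peaks, 100 counts). The calculations were tested on simulated data. No test between samples was possible. The members, the pathway and marker lists were chosen with earlier results of these data known, and the set of B lineage clusters after they were seen. Genes named were the members, the listed genes, markers and leading genes, and the 3 genes most like each member; the peaks named were chosen after their values were seen. Some of the listed and most alike genes are not reported here.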

Additional observations from a re-analysis of the deposited data

How the results depend on the processing

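Of 51 recomputed values of the summed members, their count and their summed windows, 38 stayed within the set limits, 13 moved and 0 reversed. Of 18 thinned shares of pro-B-like nuclei with a UMI, 13 moved without thinning and 12 with thinning to 300 UMIs. The summed RNA ratio of B lineage to other nuclei, 9.67 in library 1 and 10.46 in library 2, became 9.125 and 8.66 with at least 500 genes per nucleus, 10.8 and 11.8 without the top 8% of doublet scores, and 8.72 and 9.18 with cluster 9 counted outside the B lineage, an alternative added after the data were seen. The ATAC ratio of 1.62 in each library became 1.54 in library 2 with at least 500 genes, 1.97 and 1.97 within 10 kb, 5.39 and 5.16 at promoters alone, and 2.18 and 2.13 without promoters of other genes. The count of members at least 2-fold higher was 7 with at least 500 genes (Rag1 and Rag2 then had under 20 UMIs in library 2), 8 at a ratio of 4 and 9 otherwise. No paired analysis was possible because the libraries carry no group or replicate number and no test was run. Depth limits Rag1 and Rag2 most, and with at least 500 genes only 1 mature B-like nucleus of library 2 remained. At that limit no unnamed B lineage cluster was left, and a second pro-B-like cluster held 65 and 4 nuclei.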
